A study of Homo sapiens with 12 samples.

Results

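The comparison described here sets every small RNA library from cells given a trigger insert against those from cells given the GFP control, and asks which miRNAs changed with either insert. The 4 trigger libraries were treated as 1 group: 2 from cells transfected with the BCL2L11 trigger plasmid and 2 from cells transfected with the TRIM9 trigger plasmid. The 2 libraries of GFP control transfections were the other group, so the comparison used 6 of the 12 samples of the series. Members were chosen by their labels alone. The other 6 samples are poly-A RNA libraries of the same 3 transfections, and served here only for the genes that contain a named miRNA.

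All cells were HEK293T, an established human embryonic kidney line that carries the SV40 large T antigen. Both trigger plasmids expressed a GFP reporter with a trigger in its 3′ untranslated region, taken from BCL2L11, which encodes the apoptosis activator BIM, or from TRIM9, which encodes a neuronal ubiquitin ligase. The control plasmid is labelled GFP. Each well received 2 µg of plasmid with either polyethylenimine or lipofectamine, and the labels do not say which reagent each library had. RNA was taken 48 h after transfection and RNAs of 18 to 40 nt were sequenced. The study gives 2 biological replicates for each trigger and does not say how the GFP libraries were replicated, so p-values measure the spread between these libraries. The model is transient overexpression in 1 cell line, and no group received a trigger with its miRNA site destroyed.

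Target-directed miRNA degradation is a route by which a target RNA destroys the miRNA that binds it. Most targets pair with the seed of a miRNA, the bases 2 to 8 from its 5′ end, and are themselves repressed. A trigger pairs with the seed and also with the 3′ part of the miRNA. The ubiquitin ligase ZSWIM8 then marks the Argonaute protein that holds the miRNA, and the miRNA is lost with it. The TRIM9 trigger is directed at miR-218-5p, and the BCL2L11 trigger at miR-221-3p and its relative miR-222-3p. Pooling the inserts asks what they have in common against GFP.

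The 3 miRNAs that the inserts pair with are shown first, since they set the limit of what pooling can show. Sequences are the RefSeq mature miRNAs of GRCh38.p14, written 5′ to 3′ with the seed in capitals.
miR-221-3p: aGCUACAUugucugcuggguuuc
miR-222-3p: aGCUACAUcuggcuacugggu
miR-218-5p: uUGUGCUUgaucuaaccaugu
miR-221-3p and miR-222-3p have the same seed and come from neighbouring genes on the minus strand of the X chromosome, at chrX:45746180-45746202 and chrX:45747036-45747056. miR-218-5p has 2 genes, MIR218-1 at chr4:20528299-20528319 on the plus strand and MIR218-2 at chr5:168768211-168768231 on the minus strand. MIR218-1 lies within SLIT2 and MIR218-2 within SLIT3, both genes of secreted axon guidance proteins.

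The miRNAs of lowest p in the pooled comparison are shown next: first the 2 that were higher with a trigger at an unadjusted p under 0.05, then the 4 that were lower.
miR-215-5p: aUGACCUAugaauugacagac
miR-1257: aGUGAAUGauggguucugacc
miR-580-3p: uUGAGAAUgaugaaucauuagg
miR-4517: aAAUAUGAugaaacucacagcugag
miR-552-3p: aACAGGUGacugguuagacaa
miR-4677-5p: uUGUUCUUuggucuuucagcca
None of these 6 seeds is that of a miRNA the inserts are directed at. Among the 16 miRNAs of lowest p, 8 on each side, there were 16 different seeds.

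The trigger libraries held 5018875 to 6091151 miRNA reads, and the GFP libraries 5232640 and 5266563. Of 1153 mature miRNAs listed, 443 had enough reads to be tested. A single miRNA, miR-148a-3p, took 57.7% to 67.2% of the reads in the trigger libraries, against 57.7% and 61.4% in the GFP libraries. The TMM factors that correct for such composition were 0.777 to 1.17 in the trigger libraries and 1.05 and 1.06 in the GFP libraries; the lowest belonged to TRIM9 replicate 2, which also had the highest miR-148a-3p share. No 2 libraries held identical counts. In the matching poly-A RNA, the HEK293 gene IRS4 was at 9.46 to 80.3 FPKM with a trigger and 8.61 to 65.9 FPKM with GFP. LIN28B was at 10.2 to 32.2 FPKM with a trigger and 13.0 to 26.1 FPKM with GFP. Of the other HEK293T markers read, NEFM was at 17.21 to 23.832 FPKM with a trigger and 13.552 to 21.338 FPKM with GFP. NEFL was at 10.509 to 14.967 FPKM with a trigger and 9.8372 to 13.7 FPKM with GFP. PAX2 was low in both groups, at 0.36718 to 0.56088 FPKM with a trigger and 0.088586 to 0.61274 FPKM with GFP. PTPRC and HBB, markers of blood cells, were listed at 0 in every library.

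No miRNA passed the test with both triggers pooled. The edgeR quasi-likelihood test with Benjamini-Hochberg adjustment called 0 of 443 miRNAs higher and 0 lower (0%), and the lowest adjusted p was 0.9997. DESeq2 also called 0. At an unadjusted p under 0.05 edgeR had 6 miRNAs (1.35%), of which 2 were higher (0.451%) and 4 lower (0.903%) in the trigger libraries, and DESeq2 had 5. The median log2 fold change over all 443 was 0.00, and 228 (51.5%) were above 0. The values ran from −1.92 for miR-552-3p to 1.34 for miR-1257, both of them miRNAs with at most 18 reads in any library.

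The precision of each value depended on the level of the miRNA. In 279 of 443 miRNAs the 95% interval of the fold change lay within 2-fold in both directions. Among the 44 miRNAs with a mean of at least 1000 TMM-scaled CPM this held for 42, and for 35 of them the interval lay within 1.5-fold. The 2 exceptions were miR-221-3p and miR-451a. Among 80 miRNAs at 100 to 1000 CPM it held for all 80, among 148 at 10 to 100 CPM for 134, and among 171 below 10 CPM for 23. The median standard error was 0.15 log2 units in the highest of these classes and 0.47 in the lowest. All 12 miRNAs with a fitted change of at least 2-fold were below 10 CPM.

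**Figure D1:**
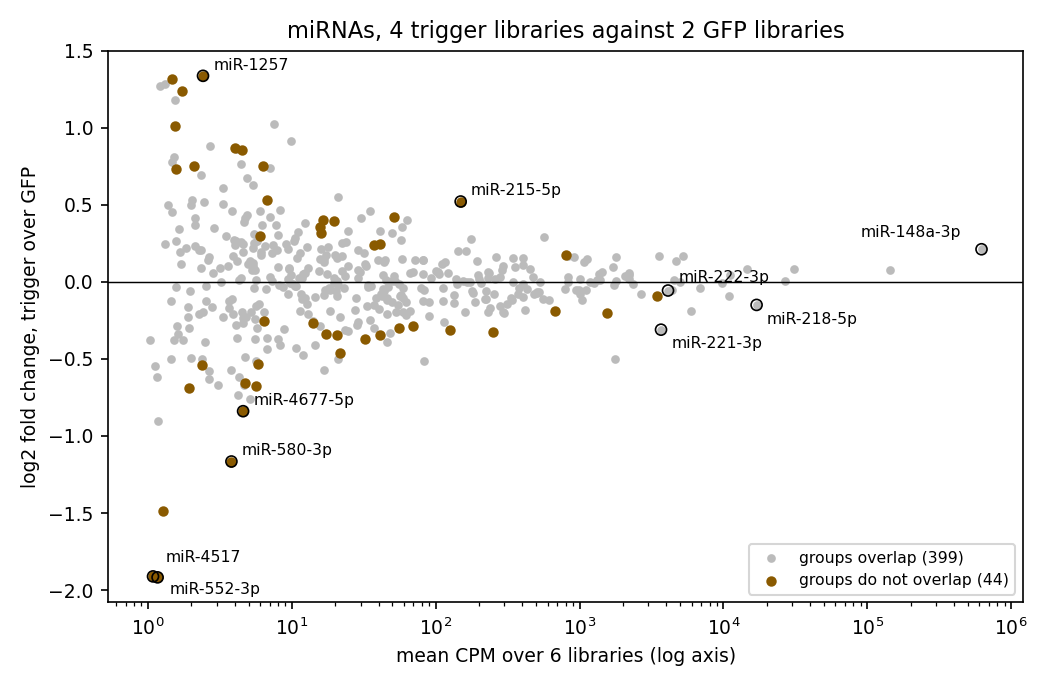
Each point is 1 of the 443 miRNAs tested, at its mean CPM over 6 libraries (log axis) and its log2 fold change of the 4 trigger libraries over the 2 GFP libraries. Brown points are the 44 miRNAs whose 4 trigger values all lie on one side of both GFP values, circles mark the labelled miRNAs, and the spread narrows from −1.92 to 1.34 at low levels to within −0.50 to 0.21 at 1000 CPM or more.

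The most abundant miRNAs had similar levels in both groups. miR-148a-3p had 561030, 686750, 494900 and 864870 CPM in the BCL2L11 and TRIM9 libraries, against 548870 and 576780 CPM in the GFP libraries, on the TMM scale. Its log2 fold change was 0.21 ± 0.20 (SE), with a 95% interval from −0.24 to 0.66. miR-7-5p, which the long noncoding RNA CYRANO degrades by the same route, had 128380, 154280, 134860 and 166150 CPM, against 153820 and 122520 CPM with GFP. The groups overlapped for both. For miR-7-5p the log2 fold change was 0.08 ± 0.15, and for miR-10a-5p, a Hox cluster miRNA, it was 0.09 ± 0.15. miR-21-5p, a growth-associated miRNA, was at −0.09 ± 0.13, miR-92a-3p at 0.08 ± 0.14, and miR-25-3p, which has the seed of miR-92a-3p, at 0.04 ± 0.13. The other members of the top 10 apart from miR-218-5p were miR-151a-3p, miR-10b-5p and miR-30d-5p, at 0.01, −0.01 and −0.04.

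**Figure D2:**
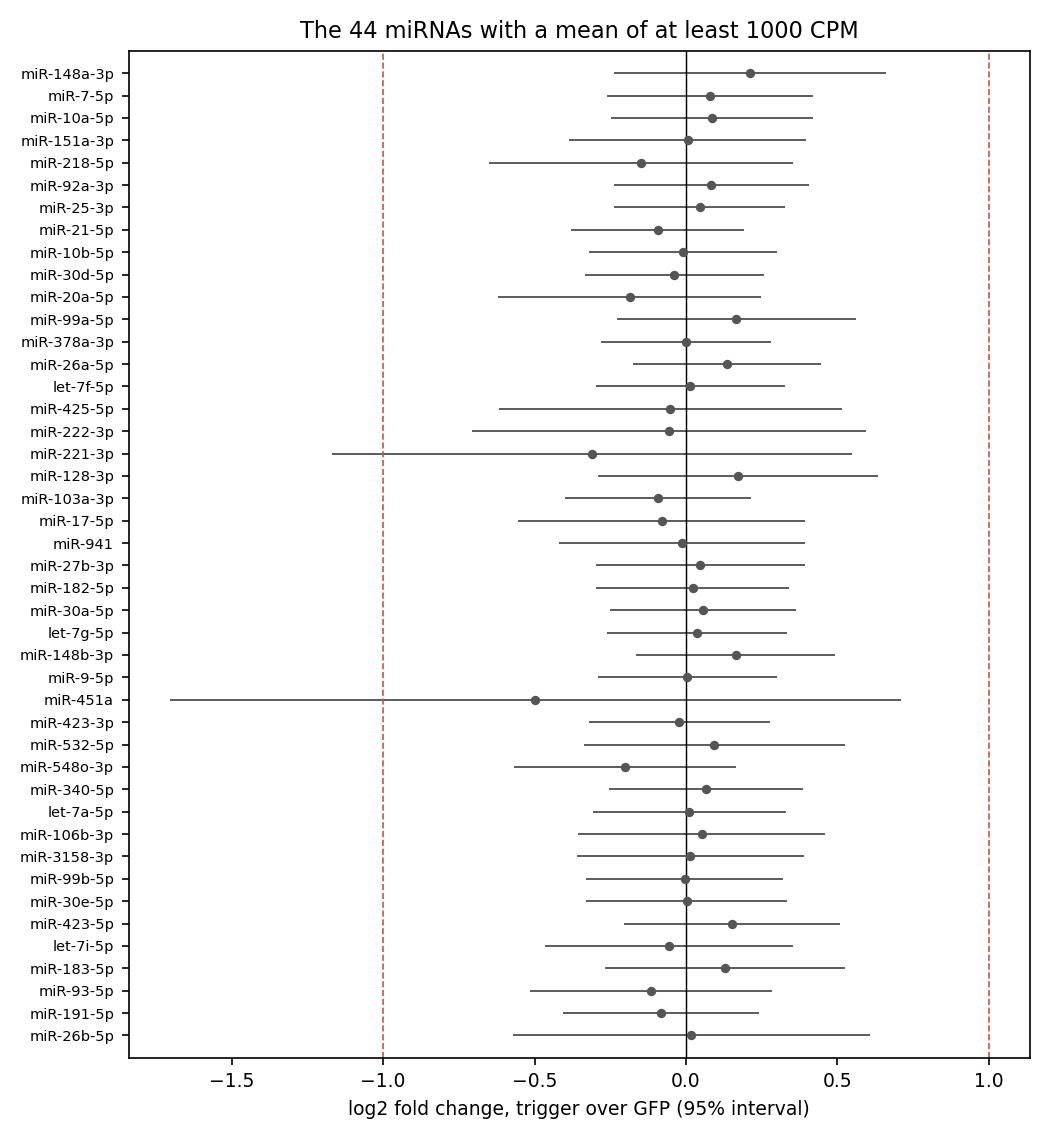
The 44 miRNAs with a mean of at least 1000 CPM, in order of level, each with its log2 fold change of trigger over GFP (point) and 95% interval (line). Dashed lines mark 2-fold in each direction, and only the intervals of miR-221-3p and miR-451a cross one of them.

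The miRNAs that the inserts are directed at were spread widely within the trigger group. miR-221-3p had 1828 and 1962 CPM in the BCL2L11 libraries and 4918 and 4928 CPM in the TRIM9 libraries, against 3993 and 4459 CPM with GFP. Its trigger values thus lay on both sides of the GFP values. miR-222-3p had 2521 and 3081 CPM with BCL2L11 and 4806 and 5847 CPM with TRIM9, against 3948 and 4500 CPM with GFP. miR-218-5p, abundant in motor neurons, had 19829 and 20779 CPM with BCL2L11 and 12098 and 12902 CPM with TRIM9, against 17198 and 19183 CPM with GFP. For all 3 miRNAs, the libraries of the insert directed at the miRNA were the lowest, and those of the other insert were the highest.

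Pooled, none of the 3 passed the edgeR test. The pooled log2 fold change of miR-221-3p was −0.31 ± 0.39 (SE; 95% interval −1.17 to 0.55). It was −0.47 with each trigger given its own mean and weighted equally (unadjusted p = 0.00601, adjusted p = 0.998, edgeR). It was −0.12 without BCL2L11 replicate 1, −0.14 without BCL2L11 replicate 2, −0.54 without TRIM9 replicate 1 and −0.54 without TRIM9 replicate 2. That of miR-222-3p was −0.06 ± 0.29, with an interval from −0.71 to 0.59. That of miR-218-5p was −0.15 ± 0.23, with an interval from −0.65 to 0.35, and the adjusted p of all 3 in edgeR was 0.9997. Given each trigger its own mean, miR-221-3p was at −1.16 with BCL2L11 and 0.22 with TRIM9 relative to GFP, miR-222-3p at −0.59 and 0.33, and miR-218-5p at 0.16 and −0.54; both columns of values use the same GFP libraries. The inserts were also set against each other, in a fit of 3 groups whose scaling and spread still draw on the GFP libraries. miR-221-3p was 1.38 log2 units lower with BCL2L11 than with TRIM9, and was the only miRNA of 443 called in that comparison (0.226%, adjusted p = 0.0076, edgeR). Fitted with the BCL2L11 and TRIM9 libraries alone, the miR-221-3p difference was −1.33 (adjusted p = 0.0446, edgeR). The differences for miR-222-3p and miR-218-5p were −0.93 and 0.70, each with an adjusted p of 0.158 in edgeR; without a filter on low counts, with DESeq2 and with a replicate block both were called. The miR-221-3p call was lost when any 1 of the 4 trigger libraries was left out, with adjusted p from 0.0743 to 0.312, and with scaling by total counts (0.212). The difference itself stayed between −1.40 and −1.30 in these settings.

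**Figure D3:**
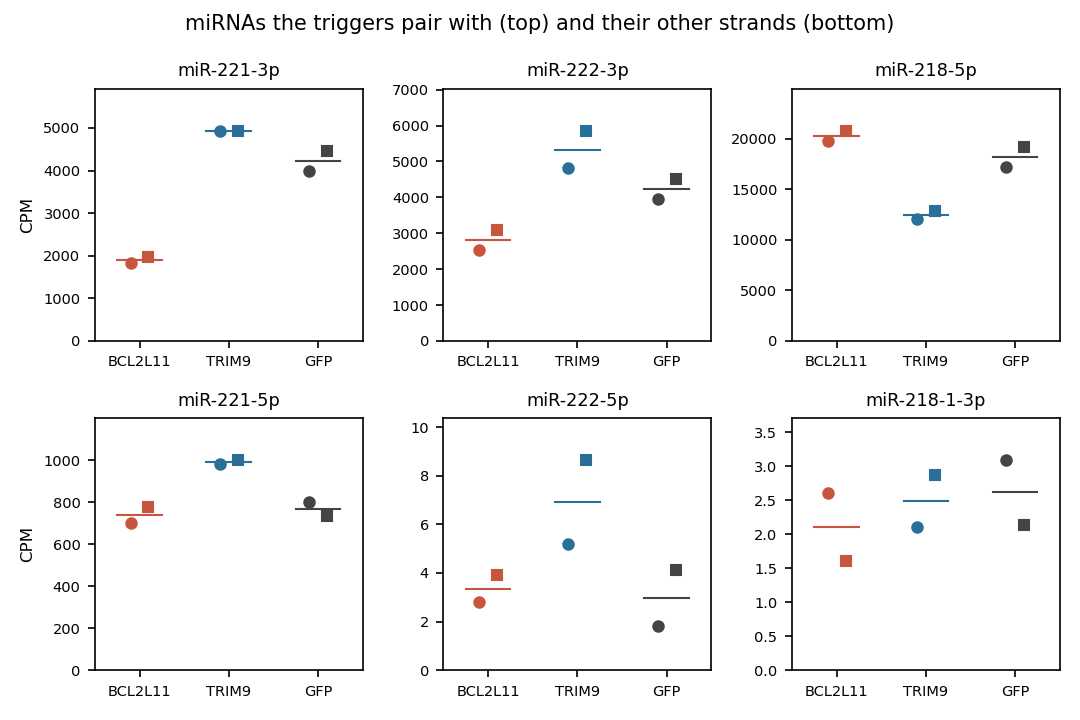
CPM of the 3 miRNAs the inserts are directed at (top row) and of the other strand of their hairpins (bottom row) in each library; circles are replicate 1, squares replicate 2 and bars the mean of 2 libraries. In the top row BCL2L11 and TRIM9 libraries lie on opposite sides of the GFP libraries. The pooled log2 fold changes are −0.31 for miR-221-3p, −0.06 for miR-222-3p and −0.15 for miR-218-5p.

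The other strands of these hairpins, which the triggers do not pair with, gave pooled log2 fold changes of 0.17 ± 0.18 for miR-221-5p, 0.77 ± 0.54 for miR-222-5p and −0.20 ± 0.47 for miR-218-1-3p. Between the inserts, BCL2L11 minus TRIM9 was −0.43 ± 0.16 for miR-221-5p, −1.02 ± 0.52 for miR-222-5p and −0.22 ± 0.55 for miR-218-1-3p. None of these differences was called (adjusted p = 0.989 for each, edgeR). miR-221-5p had 699.8, 774.7, 980.8 and 999.8 CPM with a trigger, against 798.8 and 736.0 CPM with GFP. miR-222-5p had only 15, 22, 32 and 36 reads, against 10 and 23 reads with GFP. The groups overlapped for all 3 strands. SLIT2, the host of MIR218-1, had a poly-A log2 fold change of 0.18 ± 0.45 on the log2(FPKM + 1) scale. Replicate 1 of SLIT2 was lower than replicate 2 in every group.

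On the higher side, miR-215-5p was the most abundant of the 8 miRNAs of lowest p. It is a p53-responsive miRNA encoded at chr1:220117916-220117936. It had 181.5 and 194.1 CPM with BCL2L11 and 118.9 and 168.7 CPM with TRIM9, against 116.3 and 114.5 CPM with GFP. All 4 trigger libraries lay above both GFP libraries, but TRIM9 replicate 1 by little. The means were 165.8 ± 33.0 CPM with a trigger and 115.4 ± 1.26 CPM with GFP (SD, n = 4 and 2), and the log2 fold change was 0.52 ± 0.21 (95% interval 0.05 to 0.99, unadjusted p = 0.0321, adjusted p = 0.9997, edgeR). Relative to the shared GFP libraries it was at 0.70 with BCL2L11 and 0.31 with TRIM9.

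The relatives of miR-215-5p by seed and by position are set beside it, to show how alike the sequences are.
miR-215-5p: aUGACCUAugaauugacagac
miR-192-5p: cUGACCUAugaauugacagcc
miR-192-5p has the same seed and was chosen for this after its values were seen. It had 867.0, 819.0, 816.8 and 838.1 CPM with a trigger, against 815.7 and 820.9 CPM with GFP, a log2 fold change of 0.03 ± 0.13. miR-194-5p, which has a gene beside miR-215, had 103.4, 81.3, 101.1 and 63.8 CPM, against 100.9 and 91.0 CPM with GFP, and was at −0.13 ± 0.21. Its mature sequence is also made by another gene, beside that of miR-192-5p on a different chromosome. The reads of miR-194-5p thus cannot be assigned to the neighbour of miR-215. Neither miR-192-5p nor miR-194-5p stood apart from GFP in the way miR-215-5p did, and the difference between them and miR-215-5p was not tested.

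The other 7 miRNAs on the higher side had fewer reads. miR-1257 had 12, 18, 16 and 17 reads with a trigger, against 9 and 4 reads with GFP (log2 fold change 1.34 ± 0.55, unadjusted p = 0.0364). miR-122-5p, the most abundant miRNA of hepatocytes, had 26 and 37 reads with BCL2L11 and 92 and 40 with TRIM9, against 28 and 21 with GFP. Its groups overlapped, and 1 library, TRIM9 replicate 1, was far above the rest. The liver gene ALB was at 0.280 to 1.93 FPKM in the poly-A RNA of trigger cells and 1.149 to 2.06 FPKM in that of GFP cells. miR-3173-5p lies in an intron of DICER1, the gene of the enzyme that cuts miRNA hairpins, and had 27, 25, 34 and 17 reads with a trigger, against 10 and 19 reads with GFP (0.87 ± 0.41). DICER1 itself was at −0.22 ± 0.55 in poly-A RNA, with replicate 1 lower than replicate 2 in every group.

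miR-5000-3p had 14, 7, 16 and 9 reads with a trigger, against 5 and 5 with GFP (1.24 ± 0.59). The other arm of its hairpin, miR-5000-5p, was too low to test, with 0 reads in each of the 4 trigger libraries against 5 and 4 reads with GFP. miR-1226-3p is a mirtron, an miRNA cut out by splicing, from DHX30, a gene of an RNA helicase; it had 14, 6, 12 and 7 reads, against 4 and 4 with GFP (1.31 ± 0.64), while DHX30 was at −0.12 ± 0.21. The trigger libraries lay above both GFP libraries for miR-5000-3p and miR-1226-3p. miR-193a-5p had 31, 32, 58 and 35 reads, against 25 and 23 with GFP (0.75 ± 0.36).

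miR-92a-1-5p is the passenger strand of MIR92A1 in the growth-promoting miR-17-92 cluster on chromosome 13. It is set beside the guide strand of the same hairpin, since only the passenger was among the miRNAs of lowest p.
miR-92a-1-5p: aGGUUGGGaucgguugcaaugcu
miR-92a-3p: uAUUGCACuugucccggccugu
The passenger had 50.2, 47.7, 58.5 and 67.9 CPM with a trigger, against 44.4 and 39.4 CPM with GFP (0.42 ± 0.20, unadjusted p = 0.0647). The guide, miR-92a-3p, had 15273, 13464, 14907 and 15565 CPM, against 15652 and 12280 CPM with GFP (0.08 ± 0.14), and a second gene on the X chromosome also makes it. Of 11 tested strands of the MIR17 to MIR92A1 cluster, 4 were above 0 and the median was −0.15, against 0.00 over all 443 miRNAs. Summed, the cluster had 26025, 22025, 25868 and 22324 CPM with a trigger, against 26192 and 22382 CPM with GFP. miR-19b-3p was the strand whose trigger libraries all lay below GFP, with 246.4, 260.0, 251.8 and 166.5 CPM, against 292.8 and 286.2 CPM (−0.32 ± 0.19). A wider miR-17-92 family list, with 10 miRNAs tested, had a median of −0.135, with 3 above 0. Scaling by total counts, which moves the median of all 443 miRNAs by −0.10, gave −0.217, with 0 above 0. Leaving out 1 library, on the TMM scale, gave medians from −0.22 (without TRIM9 replicate 1) to −0.03 (without TRIM9 replicate 2).

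On the lower side, miR-580-3p had the lowest p of the comparison. It is encoded on the minus strand at chr5:36147907-36147928, within LMBRD2. It had 15 and 12 reads with BCL2L11 and 18 and 12 reads with TRIM9, against 33 and 34 reads with GFP. As levels these were 2.79, 2.14, 2.91 and 2.88 CPM with a trigger, against 6.00 and 6.07 CPM with GFP, so the 2 inserts gave near equal values and both lay under GFP. The fitted level with a trigger was 0.446 times that with GFP (95% interval 0.258 to 0.770; log2 fold change −1.17 ± 0.35). The unadjusted p was 0.00808 and the adjusted p 0.9997 in edgeR, so the difference did not pass over 443 tests. It was too low for the filter of 100 counts. Over the other 13 alternative settings its log2 fold change ran from −1.27 to −1.09 and its lowest adjusted p was 0.916. LMBRD2 was at 1.02, 3.12, 0.970 and 3.09 FPKM in poly-A RNA of trigger cells, against 1.79 and 3.44 FPKM in that of GFP cells (−0.30 ± 0.40), with replicate 1 lower than replicate 2 in every group.

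miR-4517 and miR-552-3p had the largest fitted differences and very few reads. miR-4517, encoded at chr16:28958587-28958611 within NFATC2IP, had 2, 6, 3 and 1 reads with a trigger, against 14 and 10 reads with GFP (−1.91 ± 0.66, unadjusted p = 0.0159). miR-552-3p, encoded at chr1:34669614-34669634, had 3, 8, 2 and 0 reads, against 12 and 14 reads with GFP (−1.92 ± 0.78, unadjusted p = 0.0336). In both, every trigger library lay below both GFP libraries. NFATC2IP was at −0.15 ± 0.22 in poly-A RNA.

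miR-4677-5p lies within SDCCAG8, a gene of a centrosomal protein, at chr1:243346188-243346209. It had 24, 21, 18 and 14 reads with a trigger, against 43 and 29 reads with GFP (−0.84 ± 0.36, unadjusted p = 0.0421). The opposite arm, miR-4677-3p, had 203, 274, 239 and 226 reads, against 226 and 268 reads, and was at 0.01 ± 0.21. SDCCAG8 had 4.62, 4.71, 3.59 and 4.09 FPKM in trigger cells, against 6.87 and 5.75 FPKM in GFP cells. SDCCAG8 was below GFP in all 4 trigger libraries, as was miR-4677-5p, which was named for its low p, while the 3p arm overlapped with GFP. Groups did not overlap for 44 of 443 miRNAs (9.93%), and this share is not given here for poly-A genes. A link between host gene and miRNA was not tested. The SDCCAG8 log2 fold change was −0.48 ± 0.23 (limma, unadjusted p = 0.066, adjusted p = 0.9998). Of 8 host genes tested, 0 were called by limma; over all 15183 poly-A genes 0 were called (0%) and 181 (1.19%) had an unadjusted p under 0.05.

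The remaining miRNAs on the lower side differed less. miR-365b-3p had 100, 105, 136 and 71 reads with a trigger, against 168 and 124 with GFP (−0.46 ± 0.22); its mature sequence is also made by a second gene, so the reads cannot be assigned to 1 of them. miR-454-5p had 24, 27, 35 and 16 reads, against 48 and 36 with GFP (−0.68 ± 0.33), and its opposite arm miR-454-3p was at 0.14 ± 0.37. let-7e-3p had 4, 0, 10 and 3 reads, against 11 and 14 with GFP (−1.49 ± 0.79). miR-125a-5p, a relative of the developmental timing miRNA lin-4 of Caenorhabditis elegans, was the most abundant of the 8 with 116.4, 116.8, 128.9 and 105.8 CPM, against 135.6 and 155.2 CPM with GFP (−0.31 ± 0.16, unadjusted p = 0.079). Relative to the shared GFP libraries it was at −0.32 with BCL2L11 and −0.31 with TRIM9. let-7e-3p belongs to the same cluster on chromosome 19. Its other tested strands were miR-99b-5p at −0.005, miR-99b-3p at −0.08, miR-125a-3p at −0.11 and let-7e-5p at 0.16. Of the 6 tested strands of this cluster, 1 was above 0.

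**Figure D4:**
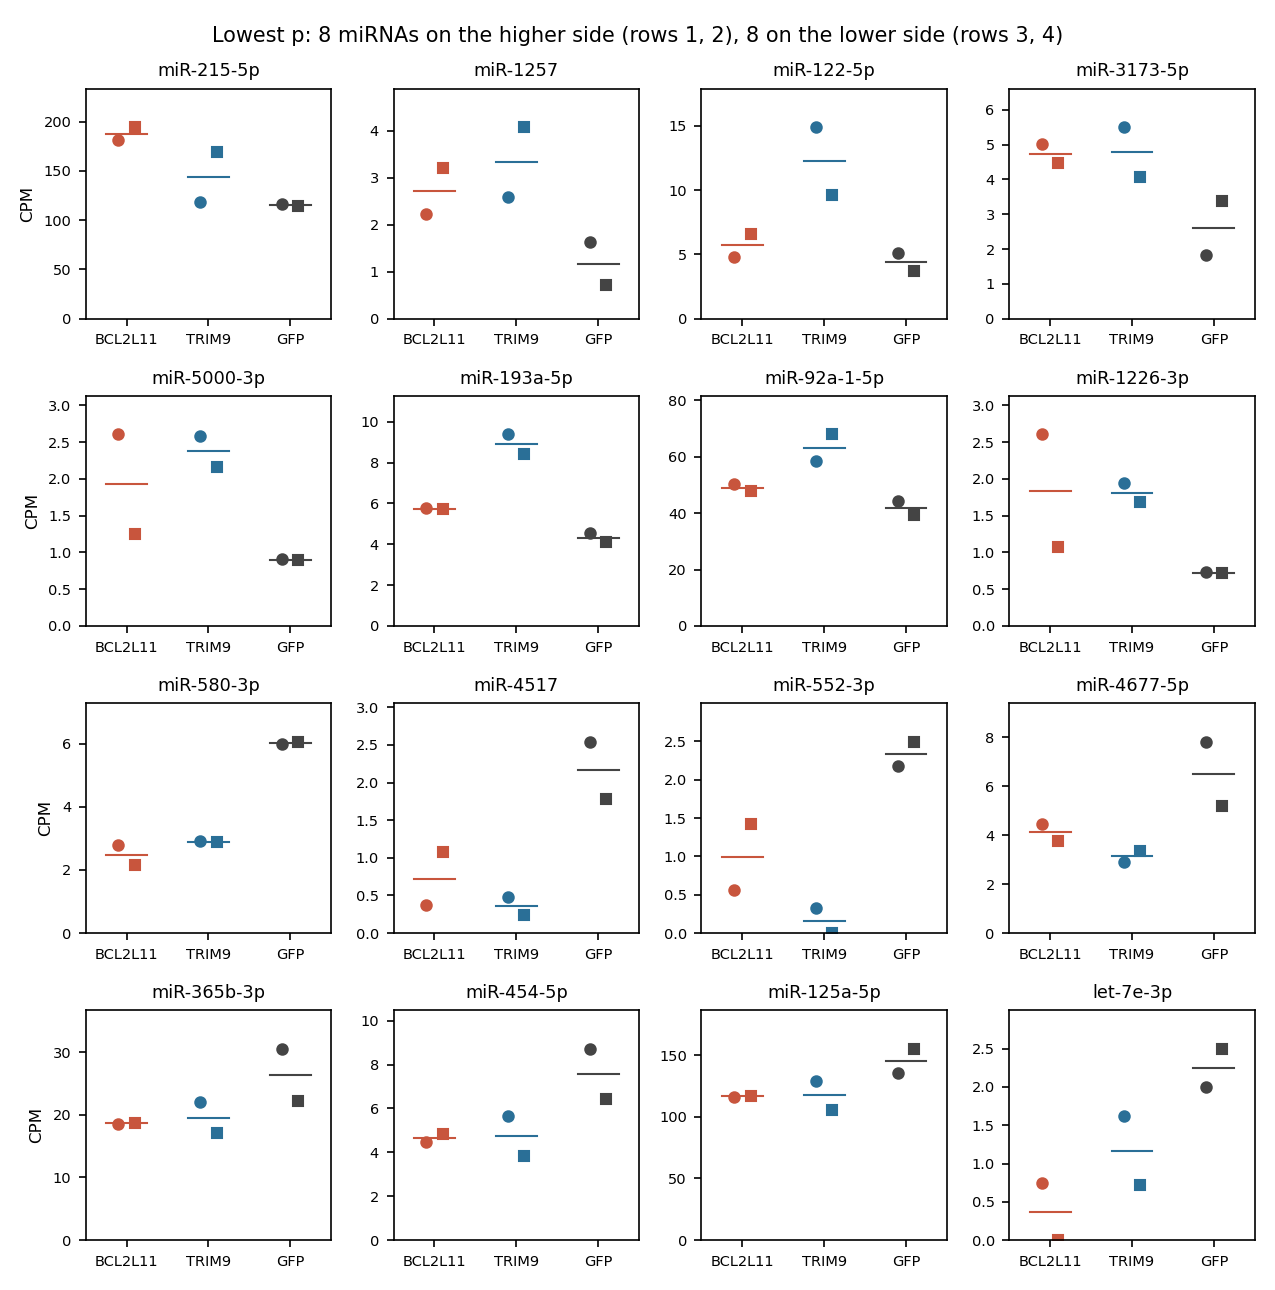
CPM in each library of the 8 miRNAs of lowest p on the higher side (rows 1 and 2) and on the lower side (rows 3 and 4); circles are replicate 1, squares replicate 2 and bars the mean of 2 libraries. Groups do not overlap for 15 of the 16, miR-122-5p being the exception, and none has an adjusted p under 0.05.

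Groups that do not overlap were frequent at this sample size. All 4 trigger libraries lay above both GFP libraries for 20 of 443 miRNAs (4.51%) and below both for 24 (5.42%); with scaling by total counts these numbers were 8 and 34. The 15 non-overlapping miRNAs among the 16 of lowest p belong to these 44 (9.93%), and low p and lack of overlap are readings of the same libraries. Of the 44 miRNAs at 1000 CPM or more, 2 did not overlap, both lower with a trigger, and they were named after their values were seen. miR-103a-3p was at 2946 to 3535 CPM with a trigger, against 3584 and 3611 CPM with GFP (−0.09 ± 0.14). miR-548o-3p was at 1178 to 1644 CPM, against 1656 and 1760 CPM (−0.20 ± 0.16).

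The inserts were also set against each other. The pooled comparison, which counts differences between the triggers as spread, had 6 miRNAs at an unadjusted p under 0.05 in edgeR. With BCL2L11 set against TRIM9, 12 of 443 miRNAs (2.71%) were under that threshold, 5 of them higher (1.13%) and 7 lower (1.58%) with BCL2L11. This share is itself smaller than 0.05, so in this setting the count of 12 does not show that the inserts differ. With a replicate block by library set the number was 39 of 443. The number was 30 without TRIM9 replicate 1, 34 without TRIM9 replicate 2 and 6 with total counts, so it depended on single libraries. miR-580-3p differed little between the inserts, with a log2 difference of −0.23 for BCL2L11 minus TRIM9. For miR-552-3p it was 2.26, from 3 and 8 reads with BCL2L11 and 2 and 0 with TRIM9. For miR-122-5p it was −1.10.

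**Figure D5:**
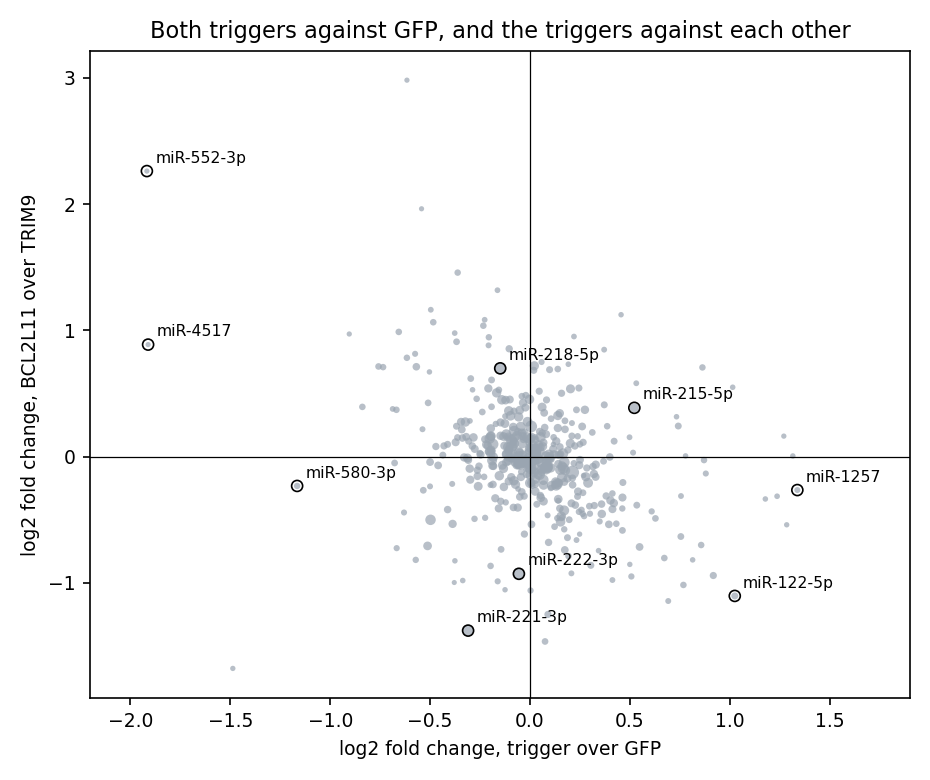
For each of 443 miRNAs, the log2 fold change of the pooled triggers over GFP (x axis) against that of BCL2L11 over TRIM9 (y axis); larger points are more abundant. miR-580-3p and miR-1257 lie far from 0 on the x axis and near 0 on the y axis, and miR-218-5p, miR-221-3p and miR-222-3p lie closer to 0 on the x axis than on the y axis.

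Lists of miRNAs by role held no called member in either direction, as did all 443 (0%). All 10 miRNAs for which other triggers are published, such as miR-29b-3p and miR-30c-5p, were tested. Their median log2 fold change was 0.04, or −0.08 with scaling by total counts, which moves the median of all 443 miRNAs by −0.10. The 9 let-7 members, which restrain growth and differentiation genes such as LIN28B, had a median of 0.01, or −0.08 with scaling by total counts. Of 8 p53 and growth arrest miRNAs 6 were tested, with a median of 0.03, or −0.05 with total counts. Of 8 inflammation and interferon miRNAs 5 were tested, with a median of 0.00 and 3 above 0, or −0.14 and 1 above 0 with total counts. miR-146a-5p, which the NF-κB pathway induces, was at 0.09 ± 0.33. Of 6 hypoxia and stress miRNAs 5 were tested, with a median of 0.15, or 0.07 with total counts and from 0.00 (without TRIM9 replicate 1) to 0.22 (without BCL2L11 replicate 2) when 1 library was left out. miR-210-3p, the best known hypoxia-induced miRNA, was at 0.17 ± 0.34. Of 16 miRNAs made by routes other than the usual Drosha and Dicer cuts, or from other small RNAs, 7 were tested. Their median was −0.00, or −0.10 with total counts and from −0.36 (without GFP replicate 2) to 0.17 (without GFP replicate 1) when 1 library was left out. The list holds miR-451a, which had its lowest value.

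Markers of other cell types were also read in each library. Of 7 blood miRNAs 2 were tested, and the 7 together summed to 498, 2267, 997 and 2895 CPM in the BCL2L11 and TRIM9 libraries, against 2209 and 2425 CPM with GFP. Replicate 1 of each trigger was thus low. Most of this was miR-451a, the erythroid miRNA that Argonaute 2 cuts without Dicer, with 2324, 11951, 5558 and 11386 reads, against 11431 and 12877 reads with GFP (−0.50 ± 0.54). Its log2 difference between trigger and GFP was −1.74 within replicate 1 and 0.07 within replicate 2. miR-143-3p, the tested 1 of 4 mesenchymal miRNAs, had its lowest level in the same library as miR-451a, with 13.8, 53.9, 34.0 and 64.5 CPM, against 46.9 and 61.4 CPM with GFP. In poly-A RNA the fibroblast gene COL1A1 was at 1.86 to 4.02 FPKM with a trigger and 1.27 to 1.87 FPKM with GFP, and DCN was at most 0.0348 FPKM with a trigger and listed at 0 with GFP. Of 7 epithelial miRNAs 3 were tested, with a median of −0.18, and of 3 neuronal miRNAs 2, with a median of 0.09, or −0.04 with total counts. The part of other cells in any difference above was not tested.

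Measures of the whole small RNA library differed by less than the spread among the trigger libraries. miR-148a-3p took 62.0 ± 4.11% of reads with a trigger and 59.5 ± 2.60% with GFP (SD, n = 4 and 2; exact permutation test, two-sided, p = 0.667). Strands from the 5′ arm took 28.1 ± 3.04% with a trigger and 29.8 ± 2.46% with GFP (exact permutation p = 0.533). The number of miRNAs with at least 1 read was 830, 802, 840 and 745 with a trigger, against 794 and 778 with GFP (exact permutation p = 0.533). With 15 ways to split 6 libraries into 4 and 2, the smallest two-sided p this test can give was 0.133.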

How the data were processed

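Small RNA and poly-A RNA of the 3 transfections were measured in 6 libraries each. The authors deposited a table of raw read counts per mature miRNA for the 6 small RNA libraries, and StringTie transcript tables with FPKM for the poly-A libraries. Per the submitters' processing notes, the tools were cutadapt 3.4, STAR, StringTie 2.1.3 and DESeq2 1.20.0 with hg38; the settings are not given in the sources used here. A mature miRNA made by several genes has 1 row of counts.

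Counts were used as deposited. The 4 trigger libraries formed 1 group against 2 GFP libraries in edgeR 4.0.16 (R 4.3.3): filterByExpr, TMM scaling, quasi-likelihood test, two-sided, Benjamini-Hochberg adjustment over all 443 miRNAs tested, threshold 0.05. Differences between the triggers thus count as spread. The BCL2L11 against TRIM9 difference came from a fit of 3 groups. Printed CPM are TMM-scaled. Of the 443, 397 matched a RefSeq mature sequence (GRCh38.p14). For genes whose span contains a named miRNA on the same strand, transcript FPKM were summed per gene and tested with limma 3.58.1 on log2(FPKM + 1), with genes of at least 1 FPKM in 2 libraries; fold changes on this scale understate those of low genes.

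Named miRNAs were those the inserts are directed at and their other strands, the 8 of lowest p in each direction where fewer than 8 passed, the 10 most abundant, up to 3 per list, and the other arm and the neighbours within 10 kb of each miRNA named for its p. Members and lists were chosen with earlier results of these data known. Alternatives were DESeq2 1.42.0, other scalings and filters, a block by library set and leaving out each library. The fits were tested on simulated data. PCR reads carry no molecular identifiers, so intervals cover only the spread between libraries that the model sees.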

Additional observations from a re-analysis of the deposited data

Results flagged for a closer look

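Among 70 groups of 4 trigger libraries checked, 4 held a library far from the other 3, and chance flags about 1 in 20 groups. miR-580-3p was at 2.14 CPM in BCL2L11 replicate 2, with the other trigger libraries between 2.79 and 2.91 CPM; that library was the one farthest from the GFP libraries, at 6.00 and 6.07 CPM. miR-151a-3p was at 19899 CPM in TRIM9 replicate 1, lower than in the other 3 trigger libraries and in both GFP libraries. miR-19b-3p was at 167 CPM in TRIM9 replicate 2, against 246.4 to 260.0 CPM in the other trigger libraries. miR-99b-3p was at 300.2 CPM in the same library, against 228.2 to 231.7 CPM in the others.

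miR-221-3p differed between the inserts, with a log2 difference of −1.38 for BCL2L11 minus TRIM9 (adjusted p = 0.0076, edgeR), which the pooled comparison counts as spread. miR-150-5p, a lymphocyte miRNA that did not have enough reads in enough libraries to be tested, had 158 reads in TRIM9 replicate 1 and at most 2 reads in each other library: 0 and 1 with BCL2L11, 2 in TRIM9 replicate 2, and 0 and 1 with GFP. The same library had the highest count of miR-122-5p, 92 reads. The source of these reads was not tested.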

How the results depend on the processing

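With both triggers pooled, 13 of 14 alternatives called 0 miRNAs. Without a filter on low counts 1 was called higher, miR-150-5p, from 158 reads in 1 library (log2 fold change 5.88, adjusted p = 1.83e-09, edgeR). At an unadjusted p under 0.05 the number ran from 1, with at least 100 counts in 2 libraries (240 tested), to 35 without a filter (1153 tested). Leaving out each library gave 0 calls throughout, with 431 to 483 miRNAs tested, and 6 to 10 at an unadjusted p under 0.05 (10 without BCL2L11 replicate 1).

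For BCL2L11 against TRIM9, calls were 1 higher and 3 lower without a filter, 1 and 2 with DESeq2, and 0 lower with total counts. Leaving out 1 library gave 0 to 1 lower calls. miRNAs whose trigger libraries all lay above GFP numbered 8 with total counts and 7 with at least 100 counts, and those below 12 with at least 100 counts.

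The labels give no replicate numbers that pair libraries. With the title numbers taken as 2 sets, the differences between sets correlated at 0.232 for BCL2L11 and TRIM9, 0.347 for BCL2L11 and GFP, and 0.19 for TRIM9 and GFP over 443 miRNAs. A replicate block by set gave 0 pooled calls, and 2 higher and 2 lower calls for BCL2L11 against TRIM9; at an unadjusted p under 0.05 it gave 12 pooled and 39 for BCL2L11 against TRIM9.

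Of the values of named miRNAs in the pooled comparison, 828 kept their direction under an alternative and 66 changed sign, all uncalled. With 2 GFP libraries, miRNAs under 10 CPM carry a median standard error of 0.47 log2 units, which limits what could be detected there.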

Other observations

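Sequence features that the comparison did not use were counted over the 397 tested miRNAs with a RefSeq sequence, as a description of these libraries. Over all 443 tested miRNAs, all 4 trigger libraries lay above both GFP libraries for 20 (4.51%) and below both for 24 (5.42%), or for 8 and 34 with total counts, and the classes were not counted again with that scaling. Among 132 miRNAs in the lowest of 3 classes of GC content, all 4 trigger libraries lay above GFP for 1 and below GFP for 12. In the middle class, of 152 miRNAs, the numbers were 10 and 8, and in the highest class, of 113 miRNAs, they were 7 and 4. The median log2 fold changes of the 3 classes, from lowest to highest GC, were 0.01, 0.00 and 0.01. Over all 443, 228 (51.5%) had a log2 fold change above 0. Scaling by total counts moves the median of all by −0.10, a larger shift than the medians by last base and by arm that follow. Among 135 miRNAs that end in U, 85 were above 0 (median 0.07), against 37 of 83 that end in A (−0.04), 43 of 88 that end in C (−0.01) and 40 of 91 that end in G (−0.06). Arms were read from the names of all 443 tested miRNAs. The median was 0.01 over 199 strands of the 5′ arm and 0.00 over 178 strands of the 3′ arm. It was −0.005 over 66 miRNAs with no arm in the name.

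By genomic cluster, 7 tested strands of MIR532 to MIR502 on the X chromosome had a median log2 fold change of 0.09, and 6 strands of MIR99B to MIR125A on chromosome 19 had −0.10, with 1 above 0. By seed, the 6 members of the miR-15 and miR-16 family, which restrain cyclins and BCL2, had a median of −0.07, with 2 above 0. The 4 members of the miR-130, miR-301 and miR-454 family had a median of −0.14, with 2 above 0. miR-454-3p, the most abundant of these 4, was at 0.14. None of these members was called by edgeR (0% of 443; 6 at an unadjusted p under 0.05, and 0 called by DESeq2).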
